A study of Mus musculus with 35 samples.

Results

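The comparison described here sets induced pluripotent stem (iPS) clones made from bone-marrow mesenchymal stem cells against clones made from osteo-progenitors of the same bone marrow. It takes in all 10 PαS-iPS and all 10 OP-iPS clones, 20 of the 35 samples of the series, grouped by their labels. PαS cells are positive for PDGFRα and Sca-1 (gene Ly6a), are the highly enriched stem cell fraction, and form bone, fat and cartilage. OP cells are negative for both surface proteins and form bone alone. Both populations were sorted from the CD45- and TER119- fraction of bone marrow of adult mice that carried a heterozygous Nanog-GFP reporter with a puromycin-resistance gene. They were transduced with retroviruses for Oct3/4, Sox2 and Klf4 (3 factors, 3F), or for these and c-Myc (4 factors, 4F), together with a DsRed retrovirus. The groups 4F-PαS-iPS, 4F-OP-iPS, 3F-PαS-iPS and 3F-OP-iPS each held 5 clones that were GFP-positive and DsRed-negative, and each clone was measured once, on 1 Agilent whole mouse genome array with 1 colour (Cy3). Clones were grown on mitomycin-treated SNL feeder cells with leukaemia inhibitory factor. Whether clones of a group came from separate mice, or were sister colonies of 1 transduction, is not stated in the sources used here, so that the tests below measure the spread between clones and not between animals. Within each group some clones had a signal of Y-linked genes and others did not, as given below.

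Reprogramming replaces the expression programme of a somatic cell with that of the embryonic stem (ES) cell, in which Oct3/4 (Pou5f1), Sox2 and Nanog maintain each other's transcription. Clones can keep traces of the cell they came from, can stop short of full reprogramming, and can hold a share of cells that differentiate towards extra-embryonic lineages. In bulk RNA a smaller number of cells of a type and less RNA per cell cannot be told apart, and this holds for every level given below.

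Levels are log2 values relative to the 75th percentile of the array, so that 0 is the level of a bright probe and a dim probe is negative. A log2 difference takes dim signals as measured, and a fold written "at least" sets them at the lowest signal well above background. A probe was called changed where the moderated test of limma, with the number of factors as a covariate, gave an adjusted p under 0.05 and the difference was at least 2-fold. Between 56.6% and 65.7% of probes were well above background on the 20 arrays, and the mean share in PαS-iPS minus that in OP-iPS arrays was -0.747 percentage points (exact permutation test, two-sided, n = 10 and 10, p = 0.524). The 20 arrays lay on 6 slides of 1 scan session, and 3 slides held clones of both sources. The clones 4F-OP-iPS #1, #2 and #3 stood apart from the rest. Sox2 was -8.09 in #1, -2.04 in #2 and -8.21 in #3, not well above background in #1 and #3, while the other 17 clones lay between 0.41 and 3.23. The median correlation of these clones with the other 19 was 0.902, 0.905 and 0.911, against 0.937 to 0.968 in the rest, and counts of changed probes and the leading genes are therefore also given without them.

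Tfpi, Mitf, Ihh and Peg10 were higher in PαS-iPS clones, whereas Sh3bgrl, the immediate early genes Egr1, Egr2 and Nr4a2, Cdkn2a, Tbx15 and Hoxc10 were lower. Of 25173 probes tested, 109 (0.433%) were changed, 61 of them higher (0.242%) and 48 lower (0.191%) in PαS-iPS clones. Of 14833 named genes, each read by its brightest probe, 45 were higher and 32 lower. The median difference over all probes tested was 0.03. Of the 109 probes, 67 differed at least 2-fold both in 3F- and in 4F-clones. With the slide as a fixed block 1 probe was called, while all 109 kept their sign with an unadjusted p under 0.05 and their median size was 1.55, against 1.45 without the block. The probes were chosen on these same clones, so that an agreement in sign follows in large part from the choice. Without 4F-OP-iPS #1, #2 and #3 there were 384 changed probes, among them 67 of the 109. All 109 kept their sign there, and 85 had an adjusted p under 0.05. Leaving out 1 clone at a time gave between 12 and 918. With another background correction (normexp) 1 probe was called, and 103 of the 109 kept their sign. Differences of dim probes were smaller under it, such as 0.93 for Mitf, -1.05 for Egr2, -0.60 for Nr4a2, -0.80 for Hoxc10 and -0.89 for Crabp2.

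**Figure D1:**
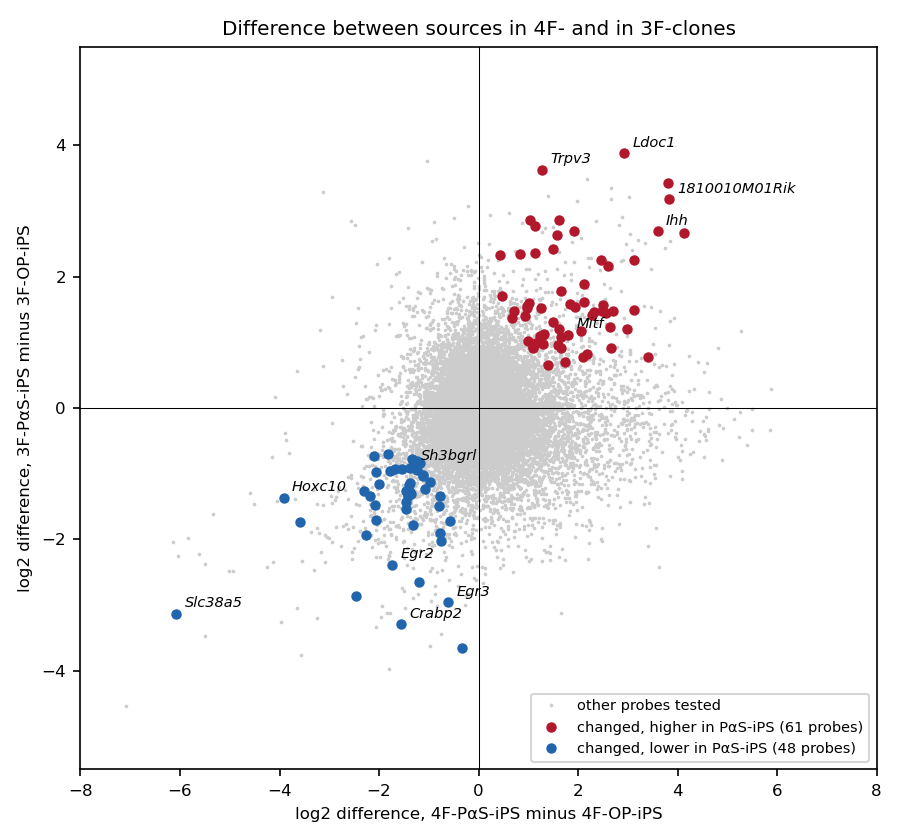
Each point is a probe, with the log2 difference 4F-PαS-iPS minus 4F-OP-iPS on the horizontal axis and 3F-PαS-iPS minus 3F-OP-iPS on the vertical axis (5 clones in each group). The 61 higher (red) and 48 lower (blue) probes lie at the upper right and the lower left, with Slc38a5 farthest down on the 4F axis and Ldoc1 highest on the 3F axis, while the grey cloud of other probes reaches as far to the right on the 4F axis alone.

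The clearest separation between the sources was in Tfpi, Mitf and Sh3bgrl. Only 18 probes (0.0715%) had no overlap at all between the 10 PαS-iPS and the 10 OP-iPS clones, 6 with PαS-iPS higher (0.0238%) and 12 with OP-iPS higher (0.0477%), and 12 of the 18 were also called changed. Tfpi encodes tissue factor pathway inhibitor, a brake on blood coagulation. Its probe lies at chr2:84297521-84297580 (mm7, the build of the array files). Its level was 3.40, 3.88 and 4.69 in PαS-iPS clones (lowest, median and highest of 10, the order used throughout) and 2.01, 2.72 and 3.22 in OP-iPS clones. The difference was 1.27 ± 0.19 on the log2 scale (SE, adjusted p = 0.0123, limma), and it was called in all 20 fits that left out 1 clone and without the 3 clones (1.32, adjusted p = 0.0117). Of the other Tfpi probes tested, 1 was also changed (1.31), and the others, at 1.38 (adjusted p = 0.0957) and 0.97 (adjusted p = 0.388), were not.

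Mitf is the transcription factor that governs pigment cells (probe chr6:98106473-98106532, mm7). It had levels of -2.48, -2.27 and -1.76 in PαS-iPS and -5.03, -3.57 and -2.57 in OP-iPS clones. Every PαS-iPS clone lay above every OP-iPS clone, and the PαS-iPS clones spanned less than 1 log2 unit. The difference was 1.46 ± 0.24 (SE, adjusted p = 0.0157, limma) and was called in all 20 fits that left out 1 clone. Of 8 Mitf family members and pigment genes tested, 7 were positive (8272 of all 14833 genes) with a median of 0.72, and 2 were higher at an unadjusted p under 0.05 (9.51% of all probes), but Mitf alone was changed (0.242% of all probes higher). Tfeb, its family member that activates lysosomal genes, differed by 0.77 (adjusted p = 0.0347, limma), which is under the 2-fold limit. Without the 3 clones that stood apart the median of this list fell to 0.15, against 0.02 for all genes, while Mitf itself stayed at 1.05 (adjusted p = 0.012). The median of the list was -0.34 in the 3F and 1.55 in the 4F comparison.

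Sh3bgrl encodes a small thioredoxin-like protein of little-known function and lies on the X chromosome (brighter probe chrX:104489230-104489289, mm7). Both of its probes on the array separated the sources. The brighter probe was -0.68, -0.28 and 0.08 in PαS-iPS and 0.35, 0.81 and 1.44 in OP-iPS clones. Its difference was -1.10 ± 0.15 (SE, adjusted p = 0.00942, limma), and the dimmer probe gave -1.09, both called in all 20 fits with 1 clone left out. Without the 3 clones they were -0.92 and -0.90 (adjusted p = 0.0119 and 0.012, limma), under the 2-fold limit. The other changed genes with no overlap were Slc39a4 (1.22), a zinc importer, and Gab1 (1.03), an adaptor of receptor tyrosine kinases, on the higher side. On the lower side they were Tbx15 (-1.31 and -1.24, on 2 probes, with the third at -1.10, adjusted p = 0.0902), the fucosyltransferase gene Fut10 (-1.02, with its other probe at -0.70, adjusted p = 0.2), 2300002C06Rik (-1.34), the transcript BC072620 (-1.77) and Egr2, which is described with the immediate early genes. For Gab1 the gap was small, 1.23 being the lowest level in PαS-iPS and 1.21 the highest in OP-iPS clones, and the call held in 1 of 20 fits with 1 clone left out. With the 3 clones left out, Slc39a4 was at 0.77, Gab1 at 0.60 and Fut10 at -0.76, all under the 2-fold limit.

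**Figure D2:**
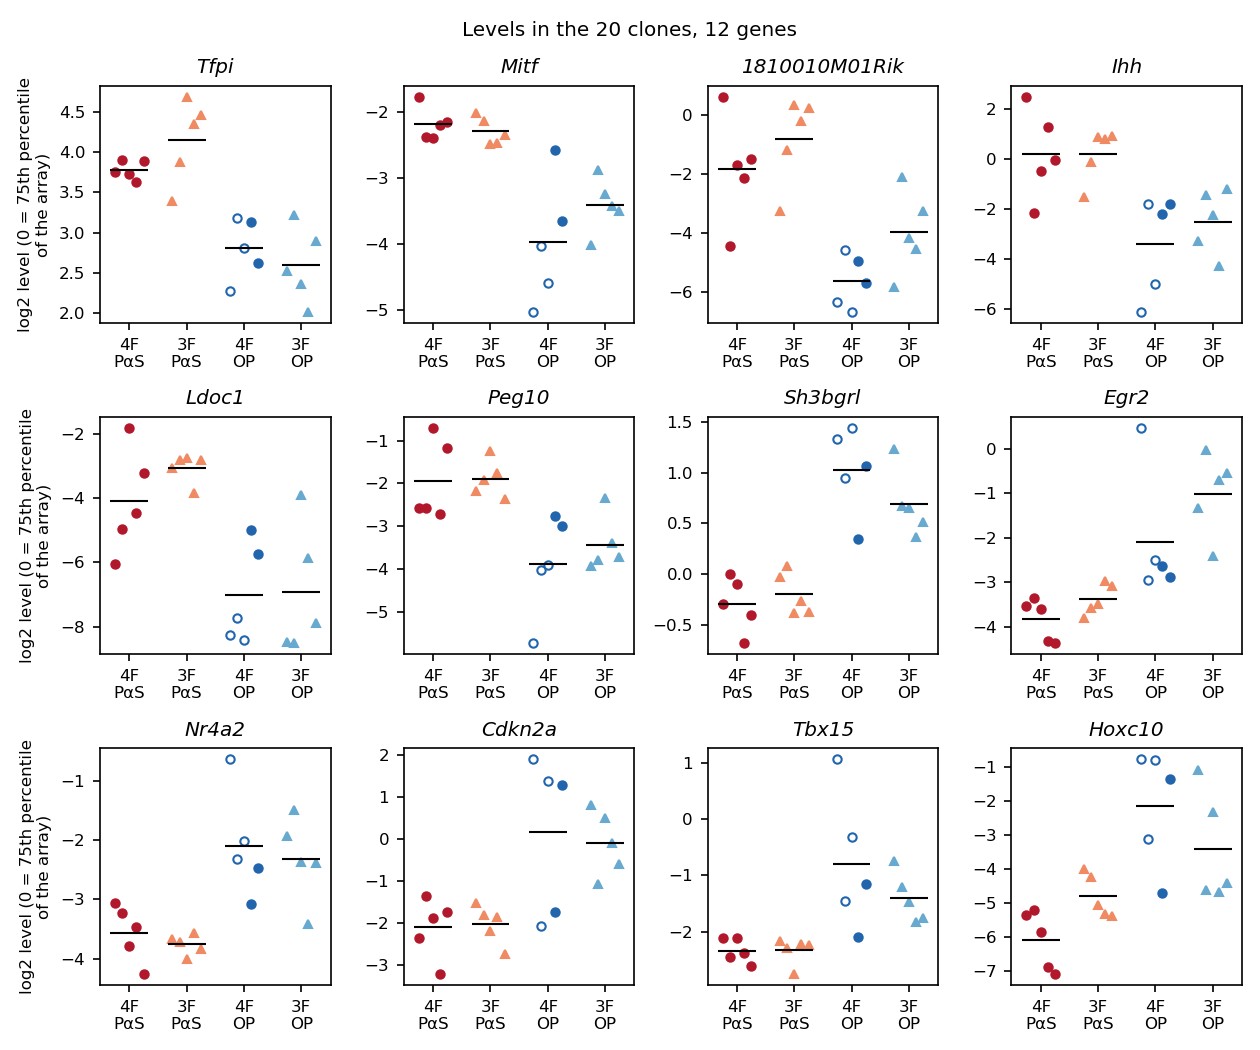
Levels of 12 genes in each of the 20 clones, as log2 values relative to the 75th percentile of the array, with circles for 4F- and triangles for 3F-clones, open circles for 4F-OP-iPS #1, #2 and #3, and a line at the mean of each group of 5. Tfpi, Mitf, Sh3bgrl, Egr2 and Tbx15 show no overlap between the 10 PαS-iPS and the 10 OP-iPS clones, and the open circles are the lowest OP-iPS points for Mitf but are spread over the OP-iPS range for Tfpi.

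Of changed genes that were well above background in at least 8 of 10 PαS-iPS clones, each read by its brightest probe, the 12 largest positive differences were between 2.08 and 3.50. The first was that of 1810010M01Rik (now Zg16), which encodes a lectin of secretory granules in gut and pancreas. It was at -4.45, -1.33 and 0.62 in PαS-iPS and at -6.70, -4.76 and -2.11 in OP-iPS clones, 8 of which were well above background, a difference of at least 10.6-fold (adjusted p = 0.017, limma). This call held in all 20 fits that left out 1 clone. Ihh (Indian hedgehog), the hedgehog ligand of visceral endoderm and of growing cartilage, was -2.16, 0.39 and 2.50 in PαS-iPS and -6.11, -2.22 and -1.21 in OP-iPS clones. It differed by 3.15 ± 0.66 (SE, adjusted p = 0.0352, limma) and was called in 10 of 20 fits with 1 clone left out, and its other probe tested differed by 2.15 (adjusted p = 0.0947). Ihh differed by 2.52 without the 3 clones (adjusted p = 0.0352).

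Others were Cyp4f14 (at least 9.96-fold), a cytochrome P450 of the liver, F2 (2.08), which encodes prothrombin, Unc93a (well above background in 7 OP-iPS clones, at least 3.84-fold) and Sgk2 (2.31), a serum- and glucocorticoid-regulated kinase. Trpv3 (2.46), a warmth-gated channel of keratinocytes, Gpr97 (2.38), an adhesion receptor, and Ptgfr, the prostaglandin F receptor (well above background in 3 OP-iPS clones and so tested through PαS-iPS clones alone, at least 2.65-fold, and 0.77 on the log2 scale with normexp), were also among them. The level of F2 was -0.08, 2.00 and 3.06 in PαS-iPS and -3.05, -0.25 and 1.88 in OP-iPS clones, so that the groups overlapped. Cyp4f14 was -2.86, 0.55 and 2.52 in PαS-iPS and -6.69, -2.36 and -0.07 in OP-iPS clones, 7 of which were well above background. Cyp4f14, F2, Unc93a and Ptgfr were called in 4 or 5 of 20 fits with 1 clone left out, with adjusted p between 0.0462 and 0.0492 in the fit of all 20. Without the 3 clones Cyp4f14 fell from 3.40 to 2.15 on the log2 scale (adjusted p = 0.0818), F2 to 1.52 (adjusted p = 0.0679) and Gpr97 to 1.96 (adjusted p = 0.0504), which ended their calls, while Unc93a fell from 2.09 to 1.19 (adjusted p = 0.0494). Further changed genes, picked after their values were seen, were Havcr1 (on its dimmer probe, well above background in 5 OP-iPS clones, at least 8.60-fold, while its brighter probe was not changed), a receptor of injured kidney epithelium, and Tmprss2 (2.04 and 1.87), a membrane protease of epithelia.

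The list of primitive endoderm genes, which mark the yolk-sac lineage, is the one to which Ihh belongs. Of 15 members tested, 14 were positive with a median difference of 0.81, against 0.04 over all 14833 genes, but Ihh was the 1 member changed. At an unadjusted p under 0.05, 7 of 15 were higher and 0 lower, and of all probes tested 9.51% were higher at that limit. Col4a1 and Col4a2, the collagen chains of the basement membrane, differed by 1.12 and 1.02, Lama1, a laminin chain, by 0.99, and Hnf4a, a transcription factor of visceral endoderm, by 1.22 (adjusted p from 0.156 to 0.21, limma). The lineage transcription factor Gata4 differed by 0.81, Sox17 by 0.73 and Gata6 by 0.28, none past the test. Without 4F-OP-iPS #1, #2 and #3 the median was 1.08, with 11 of 15 higher at an unadjusted p under 0.05 (11.9% of all probes in that fit) and 3 changed (0.747%). The median was 0.44 with the slide as a fixed block, 1.07 in 3F- and 0.46 in 4F-clones. The level of the list in a clone, taken as the median of its members' log2 deviations from their 20-clone medians, overlapped between the groups, with group medians of 0.03 in 4F-PαS-iPS, 0.99 in 3F-PαS-iPS, -0.47 in 4F-OP-iPS and -0.70 in 3F-OP-iPS clones.

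Ldoc1 and Peg10, both known for their part in the placenta, were higher. Ldoc1, an X-linked gene derived from a retrotransposon, was -6.04, -3.13 and -1.80 in PαS-iPS and -8.52, -7.81 and -3.90 in OP-iPS clones. Of the PαS-iPS clones 9, and of the OP-iPS clones 3, had a signal well above background, a difference of at least 4.10-fold (adjusted p = 0.0272, limma). Ldoc1 thus passed the filter on dim probes through PαS-iPS clones alone, and its difference was 3.41 on the log2 scale, but 0.96 with normexp background correction and 0.86 with outlying backgrounds replaced as well. Peg10, an imprinted gene of the same kind of origin, was -2.73, -2.05 and -0.70 in PαS-iPS and -5.74, -3.76 and -2.35 in OP-iPS clones, with a difference of 1.74 ± 0.35 (SE, adjusted p = 0.0333, limma). For Peg10 a single OP-iPS clone, 3F-OP-iPS #3 at -2.35, lay within the PαS-iPS range, and the other 9 lay below it. The X-linked gene 1600014K23Rik (2.69) was also higher. Changed genes picked after their values were seen were Plac1 (1.96), a placental surface protein, Gjb5 (1.89), a connexin of trophoblast, Gata2 (1.72), a transcription factor of trophoblast and blood, and Sfmbt2 (1.24 and 1.17), an imprinted polycomb-like gene of trophoblast. Of 9 trophectoderm genes tested all 9 were positive with a median of 1.18, but 0 were changed. At an unadjusted p under 0.05, 4 of the 9 were higher, against 9.51% of all probes, and of all 14833 genes 8272 were positive. Of these Gata3 had the smallest p, at 1.22 ± 0.39 (SE, adjusted p = 0.12, limma). The median without the 3 clones was 0.81, with 1 of 9 higher at an unadjusted p under 0.05, against 11.9% of all probes in that fit.

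The immediate early genes, which cells switch on within minutes of a growth factor or stress signal, had 3 changed members measured in both sources, Egr1, Egr2 and Nr4a2, besides Egr3, whose fold has only a bound. Of 20 tested, 0 were higher (0.242% of all probes) and 4 lower (0.191%), and at an unadjusted p under 0.05 10 were lower and 0 higher, against 9.05% lower over all probes. The list median was -0.50, and -0.57 without 4F-OP-iPS #1, #2 and #3. The median of the 3F comparison was -0.85 and of the 4F comparison -0.53. The level of the list, taken in the same way, was below the OP-iPS median in all 10 PαS-iPS clones, but 4F-OP-iPS #1, #2, #4 and #5 lay within the PαS-iPS range of -0.57 to 0.06. Egr2 is a zinc-finger transcription factor of this class. The window around 1 of the start sites that RefSeq lists for it is shown because it holds a serum response element (CArG box), the motif bound by serum response factor, printed in capitals with 250 bases before and 50 after the start (GRCm38.p6, chr10:67537619-67537918, + strand). The box starts 72 bases before the start site.

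Egr2: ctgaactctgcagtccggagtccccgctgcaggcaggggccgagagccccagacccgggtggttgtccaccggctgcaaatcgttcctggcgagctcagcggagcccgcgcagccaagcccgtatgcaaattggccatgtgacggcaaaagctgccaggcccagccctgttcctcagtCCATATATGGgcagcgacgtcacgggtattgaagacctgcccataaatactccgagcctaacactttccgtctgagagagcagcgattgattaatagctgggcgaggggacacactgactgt

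A CArG box lay in the promoter of 1 of the 15 immediate early genes that had a promoter in the reference table, counting both strands, and in 1.81% of all 27025 genes. The changed genes Egr1 and Egr3 were not among the 15 and were not searched. The cyclic AMP response element TGACGTCA lay in 1 of the 15, Dusp1, and in 2.03% of all genes. These are matches of letters in a short window and no more.

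The level of Egr2 was -4.38, -3.55 and -2.97 in PαS-iPS and -2.95, -1.88 and 0.48 in OP-iPS clones, with no overlap, though the nearest clones, 3F-PαS-iPS #4 at -2.97 and 4F-OP-iPS #2 at -2.95, almost met. It differed by -2.06 ± 0.38 (SE, adjusted p = 0.0272, limma), called in 17 of 20 fits with 1 clone left out and without the 3 clones (-1.91, adjusted p = 0.012). Nr4a2, an orphan nuclear receptor, was -4.26, -3.70 and -3.06 in PαS-iPS and -3.42, -2.35 and -0.63 in OP-iPS clones, a difference of -1.45 ± 0.26 (SE, adjusted p = 0.0256, limma). The clones 3F-OP-iPS #4 at -3.42 and 4F-OP-iPS #4 at -3.07 lay within the PαS-iPS range, and the other 8 OP-iPS clones above it. Egr1 was -1.13, 0.32 and 1.59 in PαS-iPS and 0.11, 1.54 and 3.62 in OP-iPS clones, a difference of -1.39 ± 0.27 (SE, adjusted p = 0.0298, limma). Egr3 was not well above background in any PαS-iPS clone and was so in 6 OP-iPS clones, a difference of at least 1.47-fold (adjusted p = 0.0333, limma). Egr3 thus passed the filter on dim probes through OP-iPS clones alone, and with normexp background correction its difference turned to 0.0869. The members that did not pass ranged from -2.34 (Myc, also a transduced factor in 4F-clones) to 0.24 (Egr4). Fos was at -0.64 and Jun at -0.66.

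In the primary cells, measured on 1 array each with no replicate, Egr2 stood the other way. It was 1.38 in PαS cells and -4.28 in OP cells, and Nr4a2 was 1.28 and -1.08. The feedback genes of FGF and ERK signalling, which share Egr1 and Dusp6 with this list, were negative for 12 of 13, as were 6561 of all 14833 genes, with a median of -0.52, but Egr1 alone was changed. At an unadjusted p under 0.05, 4 of 13 were lower (9.05% of all probes), and 8 without the 3 clones (10.2%). The inhibitors Spred1 (-0.85) and Spred2 (-0.54) had an unadjusted p under 0.05 and adjusted p of 0.121 and 0.138. Fgfr2, the FGF receptor of trophectoderm and primitive endoderm, was the 1 member on the positive side, at 1.30 for its brightest probe (adjusted p = 0.0824, limma), while another of its probes was changed at 1.62.

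**Figure D3:**
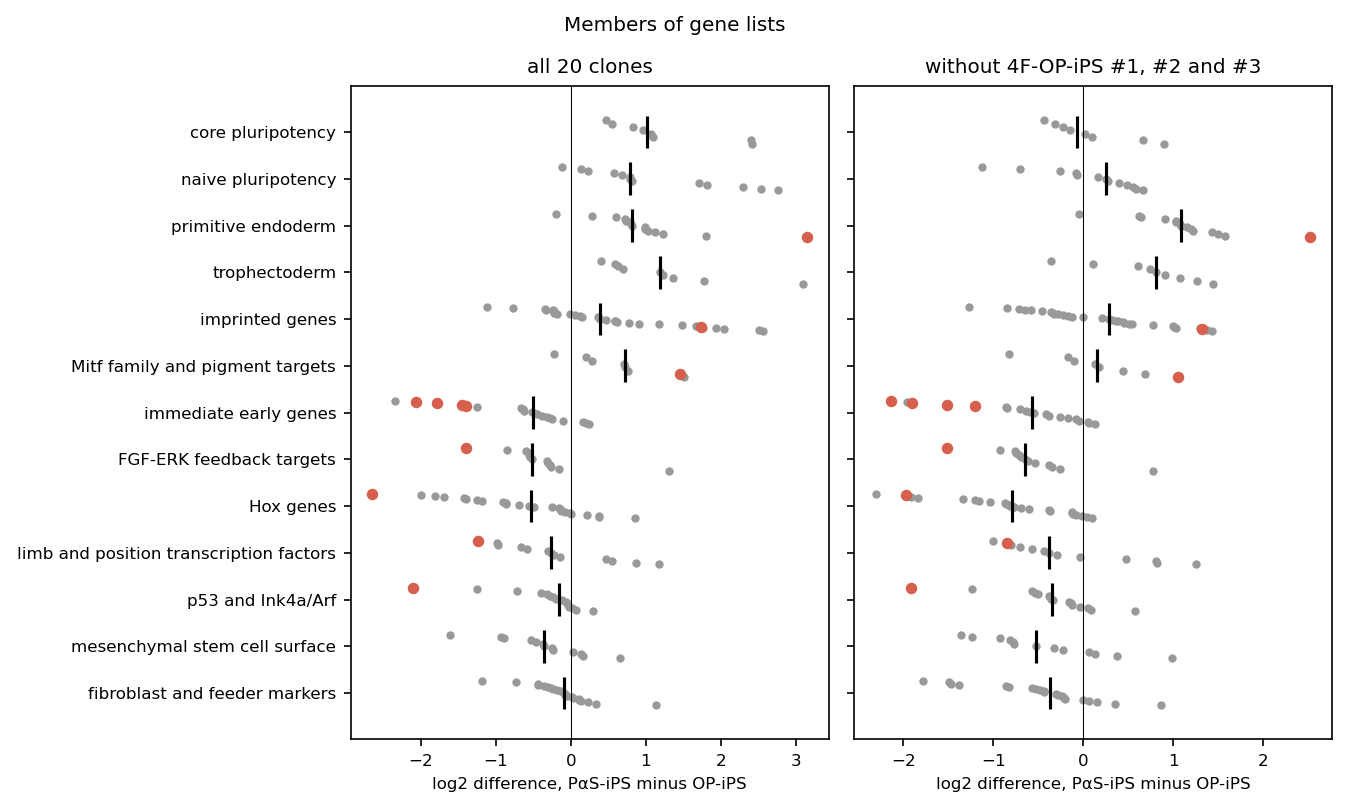
Log2 difference, PαS-iPS minus OP-iPS, for each tested member of 13 gene lists (points) with the list median (black bars), over all 20 clones on the left and without 4F-OP-iPS #1, #2 and #3 on the right. Red points mark members changed in the fit of all 20 clones. The pluripotency medians lie near 1 on the left and near 0 on the right, whereas the primitive endoderm, immediate early and Hox lists stay on their side of 0.

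Hoxc10, Tbx15, Crabp2 and Cdkn2a were lower in PαS-iPS clones. Hoxc10, a posterior homeobox gene of trunk and hindlimb, was -7.09, -5.33 and -3.99 in PαS-iPS, where 7 clones were well above background, and -4.72, -2.72 and -0.77 in OP-iPS clones. The difference was at least 5.10-fold (adjusted p = 0.0488, limma) and was called in 5 of 20 fits with 1 clone left out, and not without the 3 clones (-1.97 on the log2 scale, adjusted p = 0.0739). Of 26 Hox genes tested, 22 were negative, as were 6561 of all 14833 genes, with a median of -0.53, or -0.80 without the 3 clones. Hoxc10 was the 1 changed, and 9 were lower at an unadjusted p under 0.05 (9.05% of all probes), among them Hoxc6 (-1.39, adjusted p = 0.0635) and Hoxa9 (-1.81, adjusted p = 0.139). Both primary cells had Hoxc10 at similar levels, 0.29 in PαS and 0.41 in OP cells.

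Tbx15, a T-box factor of limb and skin mesenchyme, was -2.75, -2.38 and -2.07 in PαS-iPS and -2.06, -1.29 and 1.09 in OP-iPS clones for its brighter probe (adjusted p = 0.0462, limma), called in 3 of 20 fits with 1 clone left out. Its difference was -0.90 without the 3 clones (adjusted p = 0.0132), under the 2-fold limit. The primary cells differed in the same direction, 1.29 in PαS and 3.52 in OP cells. Among 13 limb and position transcription factors tested, Tbx15 was the 1 changed (0.191% of all probes lower), and 5 were lower and 1 higher at an unadjusted p under 0.05 (9.05% and 9.51%). The median was -0.26, and -0.04 with the slide as a fixed block. Crabp2, a retinoic acid carrier, was -5.76, -4.86 and -3.41 in PαS-iPS and -5.44, -1.72 and -0.30 in OP-iPS clones. It differed by -2.43 ± 0.55 (SE, adjusted p = 0.0446, limma), and 4F-OP-iPS #1 and #2 lay within the PαS-iPS range. The call held in 3 of 20 fits with 1 clone left out, and without the 3 clones (-3.00, adjusted p = 0.0117).

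Cdkn2a encodes the cell-cycle inhibitors p16Ink4a and p19Arf, a known barrier to reprogramming. It was -3.23, -1.87 and -1.35 in PαS-iPS and -2.08, 0.20 and 1.92 in OP-iPS clones. The clones 4F-OP-iPS #2 at -2.08 and #4 at -1.73 lay inside the PαS-iPS range, and the other 8 OP-iPS clones lay above it. The difference was -2.10 ± 0.46 (SE, adjusted p = 0.0397, limma), called in 5 of 20 fits with 1 clone left out, and it was -1.92 without the 3 clones (adjusted p = 0.0233). Of 16 p53 and Ink4a/Arf genes, 13 were negative, against 6561 of all 14833 genes, with a median of -0.16, and Cdkn2a was the 1 changed. The median was -0.35 without the 3 clones, with 7 lower at an unadjusted p under 0.05 (10.2% of all probes in that fit), and -0.08 with the slide as a fixed block. Cdkn1a, the inhibitor p21 and a p53 target, differed by -0.71 (adjusted p = 0.104), and Trp53 itself by -0.11. The 2 primary cells had nearly the same Cdkn2a level, -0.93 in PαS and -0.88 in OP cells.

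The largest negative difference among changed genes was that of Slc38a5, an X-linked amino acid transporter, at -4.60 ± 1.07 (SE, adjusted p = 0.0498, limma). It was called in 5 of 20 fits with 1 clone left out, and not without the 3 clones (-3.86, adjusted p = 0.0656). Its levels were -2.60, -1.53 and 3.39 in PαS-iPS and -1.73, 3.82 and 8.32 in OP-iPS clones, and it was the clone 4F-PαS-iPS #2 that reached 3.39, while 3F-OP-iPS #2, #4 and #5 lay between -1.73 and -0.93. Pon3 (-1.78), a paraoxonase, Gstk1 (-1.52), a glutathione transferase, Trim12 (-1.54) and Gm1966 (at least 2.17-fold) were also among the 12 largest that were well above background in at least 8 of 10 OP-iPS clones, together with 2610307O08Rik (-1.88). Gm1966 was well above background in 1 PαS-iPS clone and so passed the filter through OP-iPS clones alone, was called in 3 of 20 fits with 1 clone left out, and had a difference of -0.0038 with normexp (adjusted p = 0.997). Pon3 was at -1.28 without the 3 clones (adjusted p = 0.0631).

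None of the pluripotency genes, each read by its brightest probe, was changed. Since the 3 clones that stood apart were described by their low Sox2, the values of Sox2 and of genes low with it follow in part from that choice when they are left out. Sox2 was 0.41, 2.49 and 3.23 in PαS-iPS and -8.21, 1.84 and 3.14 in OP-iPS clones, a difference of 2.41 ± 1.33 (SE, adjusted p = 0.338, limma) that became -0.32 without 4F-OP-iPS #1, #2 and #3. Nanog differed by 2.39 (adjusted p = 0.308) and by -0.23 without them, and Pou5f1 by 1.07 (adjusted p = 0.349) and by 0.10. Gm397 (Zscan4), a gene of the 2-cell stage, differed by 0.68 (adjusted p = 0.738) and by -1.13. Klf4 differed by 0.78 and Tbx3 by 0.68, neither past the test. All 8 core pluripotency genes were positive, with a median of 1.01 over 20 clones and -0.07 without the 3. For 13 naive pluripotency genes the medians were 0.79 and 0.25, with 6 higher and 0 lower at an unadjusted p under 0.05 (9.51% and 9.05% of all probes), and 3 higher and 1 lower without the 3 clones (11.9% and 10.2%), for 10 ES marker genes 0.82 and -0.13, for 12 primed epiblast and primitive streak genes 0.70 and -0.25, and for 4 two-cell-like genes 0.71 and -0.88. With the slide as a fixed block the medians of these 5 lists lay between 1.22 and 2.19. None of the members of these 5 lists was changed, while Lin28 in the core list came nearest at 0.96 (adjusted p = 0.103). Tcfcp2l1, a naive pluripotency factor, had 1 changed probe (1.28, adjusted p = 0.0334) and a brighter one that was not (0.79, adjusted p = 0.12).

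Of 31 imprinted genes tested, 21 were positive with a median of 0.39, against 8272 of all 14833 genes with a median of 0.04. Peg10 was the 1 changed, and 9 were higher and 2 lower at an unadjusted p under 0.05, against 9.51% and 9.05% of all probes. In the Dlk1-Dio3 cluster, whose maternal transcripts are known to mark mouse iPS clones of high developmental potential, Gtl2 (Meg3) was 1.55, 3.48 and 5.54 in PαS-iPS and -7.57, 2.52 and 3.90 in OP-iPS clones for its brightest probe. That probe differed by 2.57 ± 0.90 (SE, adjusted p = 0.148, limma), while 2 dimmer Gtl2 probes were changed at 2.00 and 1.93, called in 6 and 4 of 20 fits with 1 clone left out, and the others, at 2.50 (adjusted p = 0.125) and 1.26 (adjusted p = 0.123), were not. Rian, of the same maternal unit, was -2.58, -1.08 and 0.51 in PαS-iPS and -7.60, -2.50 and -1.55 in OP-iPS clones, a difference of 1.94 ± 0.53 (SE, adjusted p = 0.0779, limma). Without the 3 clones it was 1.37 (adjusted p = 0.0378). Dlk1, the paternal gene of the cluster, differed by 0.36 and was not past the test. Grb10 (-1.12, adjusted p = 0.111) was the lowest of the imprinted genes.

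Pdgfra and Ly6a, which were used to sort the source cells, were 0.57, 1.46 and 2.04 and -0.51, 0.83 and 1.51 in PαS-iPS clones. In OP-iPS clones Pdgfra was -0.50, 0.68 and 3.35 and Ly6a -1.14, 2.64 and 4.74. Neither differed past the test (0.65, adjusted p = 0.376, and -1.61, adjusted p = 0.26, limma). Of 13 mesenchymal stem cell surface genes the median was -0.36 and 0 were changed (3 lower at an unadjusted p under 0.05, against 9.05% of all probes, led by Cd44 at -0.90, adjusted p = 0.0779). With the slide as a fixed block that median was -0.11. The median was 0.28 for 10 bone lineage genes, with Bglap1 (osteocalcin) at 1.13 (adjusted p = 0.143), and 0.25 for 11 fat and cartilage genes, with Pparg at 1.11 (adjusted p = 0.315). These medians were 0.01 and -0.12 without the 3 clones. The SNL feeders are fibroblasts, and of 22 fibroblast and feeder markers 0 were changed and 1, Cnn1 (-1.18, adjusted p = 0.187), was lower at an unadjusted p under 0.05. Of all probes 9.05% were lower at that limit. The median of the markers was -0.09, and 0.01 with the slide as a fixed block. Without the 3 clones it was -0.37, with 4 lower at an unadjusted p under 0.05 (10.2% of all probes in that fit) and 1 changed (0.779%). The level of the markers, taken in the same way, ran from -1.05 to 0.10 in 4F-PαS-iPS, from 0.03 to 0.20 in 3F-PαS-iPS, from -1.54 to 0.21 in 4F-OP-iPS and from -0.60 to 1.62 in 3F-OP-iPS clones, so that the groups overlapped, and the part of feeder RNA in the differences was not tested.

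Lists for other cell types and pathways held no changed member in the fit of all 20 clones. Their medians were -0.10 for 9 haematopoietic markers (Hba-a1 -0.85), 0.34 for 9 endothelial markers (Cdh5 1.17), -0.25 for 9 neural markers (Nes -1.02) and 0.15 for 14 genes of the epithelial-mesenchymal switch (Zfhx1a -0.40). The medians were 0.22 for 20 Nodal and BMP genes, led by the BMP target Id1 (-0.74, adjusted p = 0.144), and 0.25 for 17 Wnt genes, led by the inhibitor Dkk1 (1.31, adjusted p = 0.257). These medians turned to -0.31 and -0.27 without the 3 clones. They were 0.10 for 13 DNA methylation enzymes and readers, of which Dnmt3l, the cofactor of germ-cell methylation, had the smallest p (2.39, adjusted p = 0.115). For 17 germline genes the median was 1.37, and 0.01 without the 3 clones, led by Taf7l (1.49, adjusted p = 0.134). Growth genes known as Myc targets had a median of 0.10 over 19 genes (Tfrc 1.07), and glycolysis 0.16 over 20 (Aldoa 0.39). Interferon-stimulated genes stood at -0.09 over 22 (Ifi35 -0.70), with 2 lower at an unadjusted p under 0.05 (9.05% of all probes). Without the 3 clones they stood at -0.53 with 8 lower (10.2% of all probes in that fit). Antigen presentation by MHC class I stood at -0.11 over 13, with Psmb8, a subunit of the immunoproteasome, at -2.03 (adjusted p = 0.0961), and chemokines and receptors at -0.19 over 14 (Ccl5 -1.62). With the slide as a fixed block the medians turned to 0.11 for the haematopoietic, 0.01 for the interferon and 0.10 for the chemokine list and to -0.03 for glycolysis, and those of the neural and germline lists were -0.79 and 2.74. Myc itself differed by -2.34 ± 0.69 (SE, adjusted p = 0.0945, limma), with other probes of the gene between -2.50 and 0.07. The paper reports that PαS-iPS clones had lost expression of all transgenes, whereas silencing was incomplete in several OP-iPS clones. Whether any probe of Myc, Sox2, Klf4 or Pou5f1 also reads the retroviral copy was not tested.

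Genes of the sex chromosomes did not have the same make-up in the groups. Ddx3y, a Y-linked gene, was well above background in 3 of the PαS-iPS clones and in 7 of the OP-iPS ones, Eif2s3y in 4 and 7, and Xist in 10 and 5. Most of these Xist signals were dim. Xist was 1.03 in 4F-PαS-iPS #2 and 2.92 in 3F-PαS-iPS #4, and -2.20 or lower in the other PαS-iPS clones. It was 0.42 in 4F-OP-iPS #4, 3.27 in 3F-OP-iPS #1 and 2.31 in 3F-OP-iPS #3, and -4.38 or lower in the other OP-iPS clones. Both Y-linked genes were above background in the primary PαS cells and not in the primary OP cells. Of 838 X-linked probes tested, 10 (1.19%) were changed, against 0.433% of all probes, among them probes for Ldoc1, Sh3bgrl, Plac1, Slc38a5, Phf16, 1600014K23Rik and Ankrd58. The brighter Sh3bgrl probe was -0.10 to 0.08 in the 3 PαS-iPS clones with a Ddx3y signal and -0.68 to -0.00 in the other 7, against 0.37 to 1.44 in the 7 OP-iPS clones with it and 0.35 to 1.23 in the other 3. The part of sex-chromosome content in the X-linked differences was not tested. The sex chromosome list of 5 tested genes had a median of 1.59, led by the homeobox gene Rhox9 (2.93, adjusted p = 0.0675, limma), with 0 changed and 3 higher at an unadjusted p under 0.05, against 9.51% of all probes. With the slide as a fixed block that median was 3.59.

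The comparison was also made within each number of factors. In 3F-clones 109 probes (0.433%) were changed between the sources, 41 higher and 68 lower in PαS-iPS, a split that was 66 and 43 under quantile normalization. In 4F-clones, where the 3 clones that stood apart lie, 37 probes (0.147%) were changed. The difference between sources itself differed with the number of factors for 38 probes (0.151%, 8 with the 3F difference above and 30 below the 4F difference, or 7 and 10 under quantile normalization). Without 4F-OP-iPS #1, #2 and #3 the 4F comparison had 0 changed probes (1589 at an unadjusted p under 0.05, limma) with 2 OP-iPS clones left, and the test of the difference had 1. With the slide as a fixed block 1 probe was called in 3F-clones, 1 in 4F-clones and 0 by the test of the difference (2470 at an unadjusted p under 0.05, limma). By the test of the difference, Ppp1r10, which encodes a regulatory subunit of protein phosphatase 1, differed by -2.16 in 3F- and by 0.44 in 4F-clones. Sfrs5, a splicing factor, differed by -1.24 and 0.65, and the kinase gene Map3k9 by -1.78 and 2.25.

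Over all 20 clones, PαS-iPS clones lay closer to each other than OP-iPS clones did, and the call was lost without the 3 clones that stood apart. The spread of a clone is the root mean square of its log2 deviations from the other 4 clones of its group over all probes tested. It was 0.611 ± 0.127 in PαS-iPS and 0.817 ± 0.238 in OP-iPS clones (mean and SD, n = 10 each). The difference of -0.206 had p = 0.00123 (exact permutation test within the number of factors, two-sided, 63504 arrangements). The clone 4F-OP-iPS #2 had the largest spread, 1.33, and 3F-PαS-iPS #5 the smallest, 0.393. Without 4F-OP-iPS #1, #2 and #3 the difference was -0.0446, with p = 0.429 by the same exact permutation test, and with any 1 clone left out it lay between -0.237 and -0.140, with spreads scaled to a group of 5. In 3F-clones, which include none of the 3, the spread was 0.509 ± 0.0838 in PαS-iPS and 0.665 ± 0.154 in OP-iPS clones (mean and SD, n = 5 each), and it ran from 0.393 to 0.629 and from 0.486 to 0.912, which overlapped. Clones of 1 group share the values from which their spreads were computed, so that these are not fully independent.

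**Figure D4:**
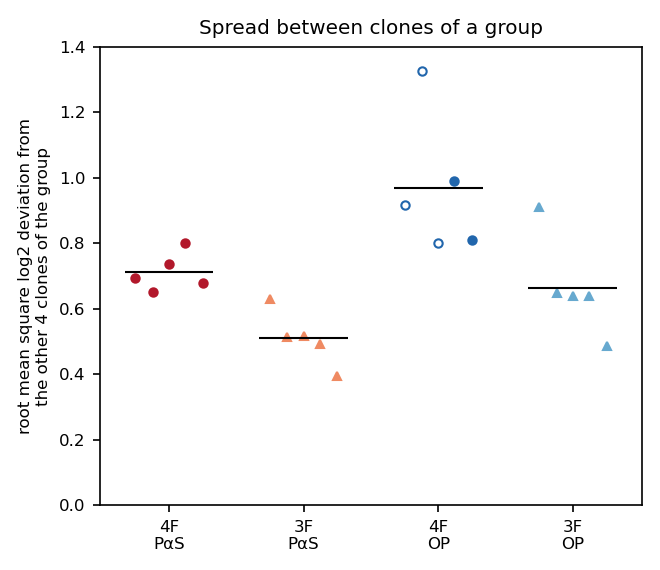
Spread of each clone, as the root mean square log2 deviation from the other 4 clones of its group, with circles for 4F- and triangles for 3F-clones, open circles for 4F-OP-iPS #1, #2 and #3, and a line at the group mean. Within each number of factors the PαS-iPS mean lies below the OP-iPS mean, and 4F-OP-iPS #2 is the highest point at 1.33.

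Between the sources, the median level of 0 of 20 chromosomes differed after adjustment (exact permutation test, 1 at an unadjusted p under 0.05, chromosome 4 at 0.0907, p = 0.0187, adjusted p = 0.375). Single clones had chromosomes that departed as a whole. In 4F-OP-iPS #2 the median deviation was -0.561 on chromosome 4, where 80.9% of 1542 probes lay below the 20-clone median, and 0.640 on chromosome 14, where 78.9% of 862 probes lay above it. The deviation was spread along each chromosome, at -0.505, -0.574 and -0.584 in 3 successive stretches of chromosome 4 and at 0.574, 0.624 and 0.704 in those of chromosome 14. In 4F-OP-iPS #1 chromosome 1 stood at 0.286, in 4F-PαS-iPS #5 and 3F-OP-iPS #4 chromosome 11 at 0.223 and 0.227, and the X chromosome at 0.338 in 4F-PαS-iPS #2, 0.223 in 3F-OP-iPS #3 and 0.171 in 4F-OP-iPS #4. The clones with a chromosome at least 0.15 from the 20-clone median were thus 2 PαS-iPS and 5 OP-iPS clones, and DNA copy number was not measured. Autosomes reached that limit in 3F-OP-iPS #4, in 4F-OP-iPS #1 and #2, and in 4F-PαS-iPS #5. The X chromosome alone reached it in 3F-OP-iPS #3 (Xist 2.31), in 4F-OP-iPS #4 (0.42) and in 4F-PαS-iPS #2 (1.03). Ddx3y was not well above background in these, nor in others such as 3F-OP-iPS #1 (Xist 3.27, X chromosome -0.0416) and 3F-PαS-iPS #4 (2.92, 0.0144). The part of sex-chromosome content in these X values was not tested.

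**Figure D5:**
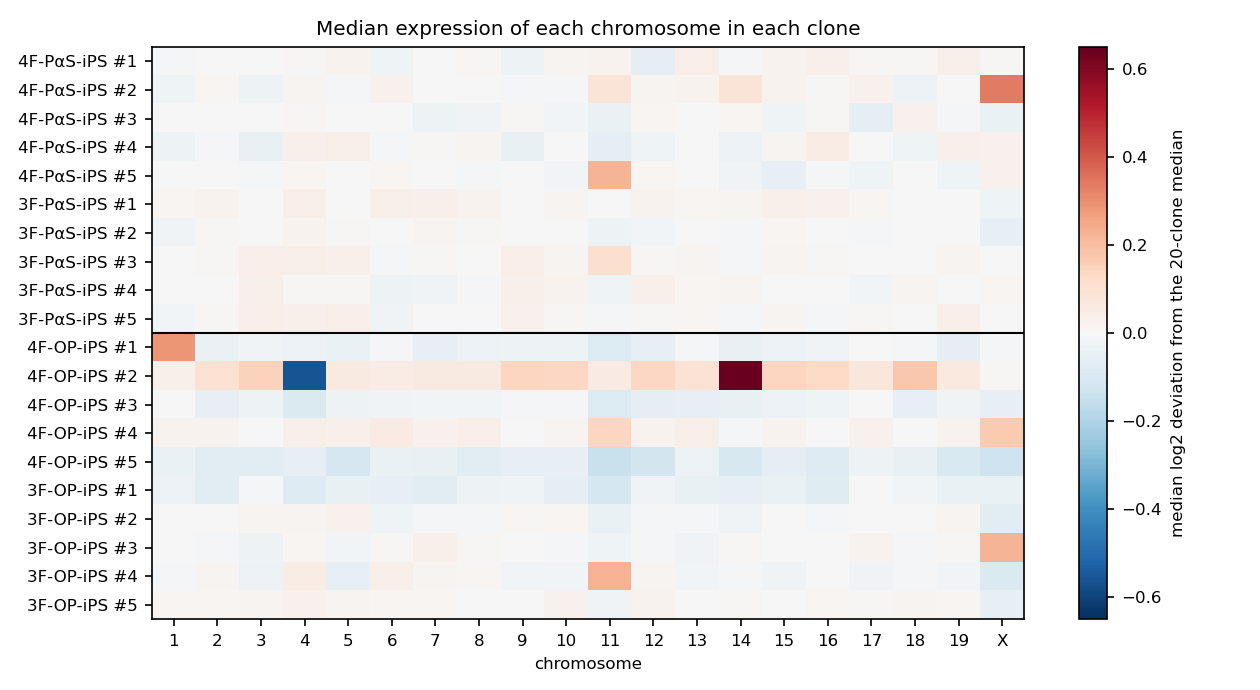
Median log2 deviation from the 20-clone median for the probes of each chromosome (columns) in each clone (rows), with PαS-iPS clones above the line and OP-iPS clones below it. Chromosomes 4 and 14 of 4F-OP-iPS #2 are the strongest cells, at -0.561 and 0.640, and most other cells are near 0.

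Set beside the other samples, the changed genes were compared with the difference between the source cells. Of the 109 changed probes, 53 differed at least 2-fold between primary PαS and primary OP cells (1 array each), and 25 of these (47.2%) had the same direction, against 48.9% of the 6417 probes tested that differed by as much. Tfpi and Mitf were among those with the same direction, at 1.97 and 1.98 higher on the log2 scale in primary PαS cells. The Y-linked Ddx3y was not above background on the primary OP array, but was so in 7 of the OP-iPS clones. The changed probes were chosen for the distance between the source means, so that the place of a further group between them is partly fixed. The mean of the 10 clones from tail-tip fibroblasts was nearer to OP-iPS for 48 of the 61 higher and 39 of the 48 lower probes, against 54.7% and 56.7% of all probes tested with a positive and with a negative difference. The mean of the ES cells (2 arrays) was nearer to OP-iPS for 49 of the 61 higher probes, against 46.1% of all positive ones, and nearer to PαS-iPS for 36 of the 48 lower ones, against 53.3% of all negative ones. It lay below both groups for 41 of the 61 higher probes, against 41.8% of all positive ones. It did so for 28 of the 48 lower ones, against 48.2% of all negative ones. The ES and primary cell arrays came from other scan sessions than the iPS clones, with other versions of the extraction software. For Ihh neither ES array was well above background.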

How the data were processed

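RNA of each clone, labelled with Cy3, had been hybridised to 1 Agilent 1-colour array. Per the file headers, the deposited scanner files hold background-subtracted intensity values (gProcessedSignal) from Feature Extraction; the authors' value table holds log2 values, processed in GeneSpring GX per the study's methods, centred on each probe's median and used as an alternative. Here, log2 of the intensity minus that of the array's 75th percentile was taken over 41174 gene probes, spots of a probe averaged and outlier spots left out. The 25173 probes tested were well above background in every clone of at least 1 group of 5. Differences were fitted with limma 3.58.1 in R 4.3.3 (source plus number of factors, 20 clones, Benjamini-Hochberg over all probes tested), after the code was tested on simulated data. Spread and chromosome medians were computed in Python 3.11.15 and tested by exact permutation within the number of factors.

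Gene names are those of the array. Of the probes, 34268 had a name and 22951 matched a RefSeq accession. Named are the 12 largest changed genes in each direction whose higher group was well above background in at least 8 of 10 clones, changed genes without overlap, up to 4 changed members of each of 32 lists (or the member with the smallest p), 11 genes named by the study, and 4 genes of the interaction; some genes that this rule selects are not reported here. The comparison and the lists were chosen with earlier results of these data known. Where a probe was dim in some clones, a fold written "at least" sets dim signals at the lowest signal of that array that was well above background. The promoter sequence is from RefSeq (GRCm38.p6). Alternatives covered background, normalization, filters, slide, replicate block, samples and weights; 1 of them (normexp with outlying backgrounds replaced) was chosen after seeing the data.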

Additional observations from a re-analysis of the deposited data

Results flagged for a closer look

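Among 141 groups of 5 clones examined, 16 had 1 clone set far from the other 4 (a gap over 0.71 of the group's range), where chance alone gives about 1 in 20, or 7.05. The largest by chromosome were in 4F-OP-iPS #2, with a median deviation of -0.561 on chromosome 4 and 0.640 on chromosome 14, while the other clones of the group lay between -0.106 and 0.036 on both. Chromosome 1 stood at 0.286 in 4F-OP-iPS #1, chromosome 11 at 0.227 in 3F-OP-iPS #4 and 0.102 in 3F-PαS-iPS #3, and chromosome 4 at -0.0824 in 3F-OP-iPS #1. The X chromosome stood at 0.338 in 4F-PαS-iPS #2 and at 0.223 in 3F-OP-iPS #3.

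Single genes were set apart in the same way. Egr2 was 0.48 in 4F-OP-iPS #1, against -2.95 to -2.49 in the other 4 clones of that group. In 3F-PαS-iPS clones Ldoc1 was -3.83 in #4, Gab1 1.26 in #4, Pon3 -1.65 in #1 and the dimmer Tbx15 probe of those given above -2.76 in #3. Trpv3 was -2.06 in 4F-PαS-iPS #4. In 3F-OP-iPS clones Unc93a was -2.69 in #3 and Slc39a4 3.29 in #1.

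For 4 genes the difference between the sources differed between 3F- and 4F-clones by the test of the difference itself (limma). The 3F difference minus the 4F difference was -2.61 for Ppp1r10, -4.03 for Map3k9, -3.19 for 1700029J11Rik and -1.89 for Sfrs5. With 4F-OP-iPS #1, #2 and #3 left out, 1 probe passed that test.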

How the results depend on the processing

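In place of 109 changed probes, limma called 1 with normexp background correction, 46 with normexp and outlying backgrounds replaced (chosen after seeing the data), 33 with no filter on dim probes, 67 with probes above background on all 20 arrays, 193 with no fold minimum, 1 with the slide as a fixed block, 44 with it as a random block, 443 with 7 groups in the fit, 384 without 4F-OP-iPS #1, #2 and #3 and 963 with array weights. With normexp, 3197 probes had an unadjusted p under 0.05. Normexp moved the median of all probes from 0.03 to 0.12, and 103 of the 109 kept their sign, while Egr3 turned to 0.0869. All 109 kept their sign under the other alternatives in which they had a value. Quantile normalization gave 84, the median 94, the values the authors deposited 104 and a fit of 4 group means 119.

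Clone numbers do not pair the samples: of 10 same-numbered pairs 0 correlated over 0.1 and 2 of 20 clones correlated best with their own number. The replicate block gave 12 changed probes, 1 for the interaction, 19 in 3F-clones and 0 in 4F-clones (4871 at an unadjusted p under 0.05).

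With 1 clone left out, 12 to 918 probes were changed: 12 without 3F-PαS-iPS #5 or 4F-OP-iPS #3, 13 without 3F-OP-iPS #1, 15, 22 and 68 without 3F-PαS-iPS #3, #4 and #2, 25, 31, 54 and 62 without 4F-PαS-iPS #5, #1, #4 and #3, 30 and 34 without 4F-OP-iPS #1 and #5, 44 and 56 without 3F-OP-iPS #5 and #4, and 268 and 918 without 4F-OP-iPS #4 and #2. The ranges were 6 to 999 for the interaction, 27 to 438 in 3F-clones and 0 to 1937 in 4F-clones.

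The interaction count of 38 became 17 with quantile normalization, 0 with the slide as a fixed block (2470 at an unadjusted p under 0.05) and 1 without the 3 clones. The 3F count of 109 became 1 with the slide block and 468 without the 3 clones. The 4F count of 37 became 18 with quantile normalization, 1 with the slide block and 0 without the 3 clones. The difference in spread, -0.206, lost its call without the 3 clones (-0.0446), and leave-one-out values lay between -0.237 and -0.140. Of 20 chromosomes, 1 (chromosome 4, 0.0890) passed over probes above background on all arrays. Of 1381 values of called named genes under the alternatives, 776 kept their call, 604 lost it in the same direction and 1 reversed. With 5 clones in a group, and dim probes near background, the precision is limited.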
